A study of Mus musculus with 2 samples.

Results

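Basement membranes are thin sheets of matrix that lie against muscle, vessel, nerve and mesothelial cells. Laminins, each built from an alpha, a beta and a gamma chain, assemble at the cell surface, collagen IV chains wind into triple helices that form a second network, and nidogens bridge both networks. In the heart such a sheet surrounds every cardiomyocyte and underlies the endothelium and the epicardium, and cardiac fibroblasts are among the cells that make its components. The genes described here are 10 of these components: the collagen IV chains Col4a1, Col4a2 and Col4a5, the laminin chains Lama2, Lama4, Lamb1, Lamb2 and Lamc1, and the nidogens Nid1 and Nid2. They were chosen by name, and their rows were taken from all 22 deposited comparison tables, which hold 15181 different genes. All 10 were in each of the 4 fibroblast subcluster tables.

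Single interstitial cells of the infarcted adult mouse ventricle were profiled in 2 libraries, 1 per group, with the 10x Chromium V3.1 chemistry after sorting of viable cells. One library came from PostnMCM hearts (control), the other from Yapfl/fl;Wwtr1fl/+;PostnMCM hearts, in which tamoxifen-activated Cre expressed from the Postn locus deletes both floxed copies of Yap and 1 floxed copy of Wwtr1 in cells that express Postn. Both groups underwent myocardial infarction (MI) and received chow with 0.4 g/kg tamoxifen, so that the control cells also carry active Cre, and both strains carry an eGFP reporter at the Rosa26 locus. Hearts were collected 6 days after MI by the labels, whereas the methods of the study give another day. The number of hearts in each library is not given in the sources used here. The comparison addresses which transcripts of cardiac fibroblasts depend on Yap and Wwtr1, the transcriptional co-activators held in check by the Hippo kinases.

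Both a share and a fold change are given for each gene, as deposited by the authors. The first is the percent of cells in a subcluster, per library, whose corrected count exceeded 0. The second is the average log2 fold change, positive where the library labelled depleted had the higher mean and negative where the control library did. There were no replicates, so no value carries an error, no test was made, and every difference describes 2 libraries. Cell numbers and depth are not in the tables. The smallest share above 0 shows how coarse each library was. In the control library it was 0.7%, 3.3%, 2.5% and 4.3% in subclusters 0, 3, 4 and 5, and in the library labelled depleted it was 3.1%, 4.3%, 10% and 4.8%. A difference in shares smaller than these steps cannot be resolved.

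The names of the subclusters and the origin of their cells are those given in the study, since the tables hold neither. Cells of the 2 libraries were spread unevenly over them: subclusters 0 and 4 came mainly from control hearts, so that their values set a smaller group of cells of the library labelled depleted against a larger one. Subcluster 0 carries epicardial genes, subcluster 3 is proliferating, subcluster 4 carries matrifibrocyte markers, and subcluster 5 is the Postn-rich, matrix-producing group. Col1a1, a fibrillar collagen gene of fibroblasts, was counted in 100% of cells of both libraries in all 4 subclusters. Yap1 had log2 fold changes of 0.07, 0.31, 0.04 and 0.26 in subclusters 0, 3, 4 and 5, none below 0, and Wwtr1 had 0.15, -0.30, -0.21 and -0.16. The transcript does not check the label of the second library, which is therefore called the library labelled depleted. Postn was counted in 87% of control cells and 100% of cells of the library labelled depleted in subcluster 5, and in 40% of cells or fewer elsewhere.

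Col4a1 and Col4a2 are neighbours transcribed in opposite directions from a common promoter region. Col4a1 lies at chr8:11248423-11362826 on the minus strand and Col4a2 at chr8:11362471-11499287 on the plus strand of GRCm39 (GENCODE), the build of all gene positions below unless another is named. In RefSeq (GRCm38.p6) the promoter windows of the 2 genes, 250 bases before to 50 bases after each start, share 78 bases (chr8:11312777-11312854), and 22 bases between the starts are transcribed in both. These bases are shown because the values of these 2 genes are compared with each other below. They lie within chr8:11312801-11312830, and capitals mark the bases that belong to both genes.
Col4a2, plus strand: cggcAGTGCGCGGGCGGCGTCTCCAAgggg
Col4a1, minus strand: ccccTTGGAGACGCCGCCCGCGCACTgccg

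Yap and Wwtr1 bind DNA through TEAD factors, whose core motif is GGAATG. Of the 10 genes, 7 had a promoter window in RefSeq, and Lama4, Lamc1 and Nid2 had none in the table used. The motif, searched on both strands, was in 1 of these 7 windows, that of Nid1, and in 14.7% of 32851 promoter windows of the same length. The AP-1 motif TGANTCA was in 0 of the 7 and in 7.81% of all windows. The 250 bases before the start of Nid1 (chr13:13437352-13437601, plus strand, GRCm38.p6) are shown as the only one of these windows with the core, in capitals.
Nid1: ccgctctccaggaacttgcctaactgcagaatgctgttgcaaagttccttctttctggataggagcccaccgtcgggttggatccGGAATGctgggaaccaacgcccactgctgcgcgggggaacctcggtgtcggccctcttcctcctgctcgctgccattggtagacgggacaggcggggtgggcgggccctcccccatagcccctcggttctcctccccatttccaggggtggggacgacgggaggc

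More of the basement membrane genes were higher than lower in the library labelled depleted in subcluster 0, and more were lower than higher in subcluster 5. At a limit of 0.25 in log2 fold change, 5 of the 10 genes were higher and 0 lower in subcluster 0, where 12.5% of the 8490 detected genes (a share of at least 25% in 1 of the libraries) were higher and 9.87% lower. In subcluster 5, 1 was higher and 6 were lower, beside 20.3% higher and 23.5% lower of 8349 detected genes. These counts depended on the setting: by the log2 ratio of the 2 shares of cells, at the same limit, 2 of the 10 were higher in subcluster 0 and 2 lower in subcluster 5, and with a limit of 0.5 in log2 fold change 2 were higher in subcluster 0. The percents of all detected genes under these 2 settings are not given here, so these counts cannot be set against them. In subcluster 3, 1 was higher and 2 were lower, beside 13.8% and 15.1% of 9015 genes. In subcluster 4, 1 was higher and 3 were lower, beside 25.2% and 19.5% of 9130 genes. The median over the 10 genes was 0.24, 0.05, -0.13 and -0.40 in subclusters 0, 3, 4 and 5, and the median over all detected genes was 0.01, -0.01, 0.03 and -0.01. By the ratio of shares the median over the 10 genes was 0.10, -0.059, -0.039 and -0.030, of the other sign in subcluster 3 and near 0 in subcluster 5. A share cannot exceed 100%, so the ratio has little room to rise for genes counted in nearly all cells. Lamc1 in subcluster 5, at 100% in both libraries, is 1 such gene. The share of all detected genes past the limit in either direction was 22.3% in subcluster 0 and 43.8% in subcluster 5, so that values of equal size stand out less in subcluster 5.

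**Figure D1:**
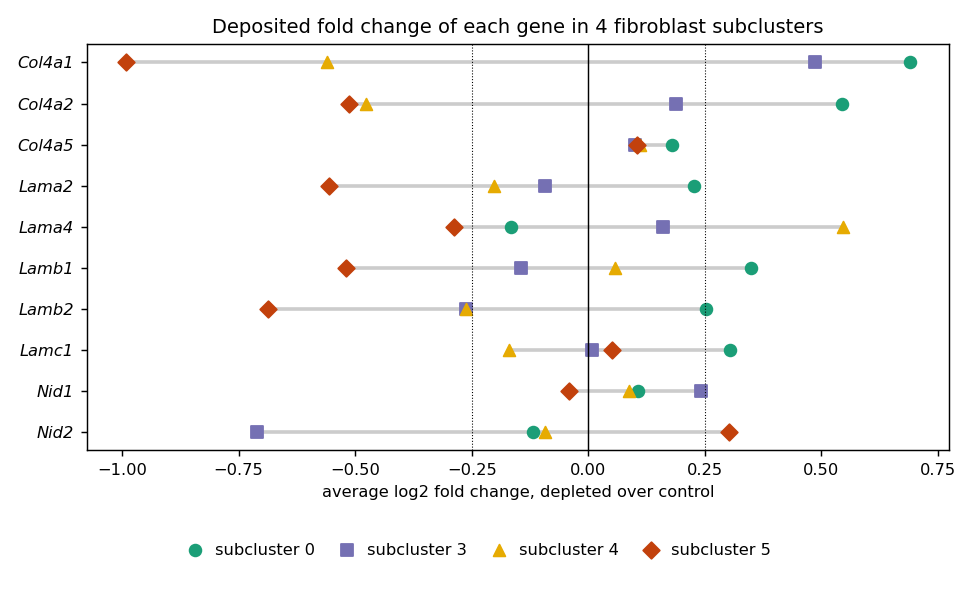
Deposited average log2 fold change (x axis, depleted over control) of the 10 genes (y axis) in fibroblast subclusters 0, 3, 4 and 5 (symbols), with grey lines spanning each gene's lowest and highest value and dotted lines at the limit of 0.25. Col4a1 runs from -0.99 in subcluster 5 to 0.69 in subcluster 0, while the 4 values of Col4a5 lie between 0.10 and 0.18.

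Among the collagen IV chains, Col4a1 had the widest span of the 10 genes. It was counted in 89.7% of control cells and 93.8% of cells of the library labelled depleted in subcluster 0, with a log2 fold change of 0.69. Only 1.02% of detected genes were as high or higher there. In subcluster 3 its shares were 83.3% and 87% and its log2 fold change 0.49. It was lower elsewhere, at -0.56 in subcluster 4 (97.5% and 100% of cells) and -0.99 in subcluster 5 (87% and 90.5%), where 1.64% of detected genes were as low or lower. The share of cells with a Col4a1 count was thus at least 83.3% in every library and differed by at most 4.1 points between libraries. In subclusters 4 and 5 the share of cells was thus not lower where the log2 fold change was.

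Col4a2, whose chain joins that of Col4a1 in the most common collagen IV trimer, went in the same direction as Col4a1 in 4 of 4 subclusters. Its log2 fold changes were 0.54, 0.19, -0.48 and -0.51 in subclusters 0, 3, 4 and 5. Its shares were 73.8% of control cells and 93.8% of cells of the library labelled depleted in subcluster 0, and 86.7% and 69.6% in subcluster 3. They were 97.5% and 90% in subcluster 4 and 87% and 90.5% in subcluster 5. The difference between the pair, Col4a1 minus Col4a2 in log2 fold change, was 0.15, 0.30, -0.08 and -0.48, smaller than the fold change of Col4a1 itself in each subcluster.

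Col4a5 (chrX:140258354-140472231, plus strand), a collagen IV chain known for its role in the kidney filter, stayed within a narrow range and never reached the limit. Its log2 fold changes were 0.18, 0.10, 0.11 and 0.11 in subclusters 0, 3, 4 and 5. Its shares were 89% and 96.9%, 83.3% and 82.6%, 97.5% and 100%, and 78.3% and 66.7%, control first. Col4a1 minus Col4a5 was 0.51 and 0.39 in subclusters 0 and 3 and -0.67 and -1.10 in subclusters 4 and 5. Col4a5 has a head-to-head neighbour too, Col4a6 (chrX:139948399-140257072, minus strand), which is no member and was looked up for its position after the values were seen. Col4a6 had log2 fold changes of 0.22, -0.36, -0.34 and 0.01, with the direction of Col4a5 in 2 of 4 subclusters, and it was counted in 34.8% to 62.5% of cells in subclusters 0, 3 and 4 but in 4.3% and 4.8% in subcluster 5.

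**Figure D2:**
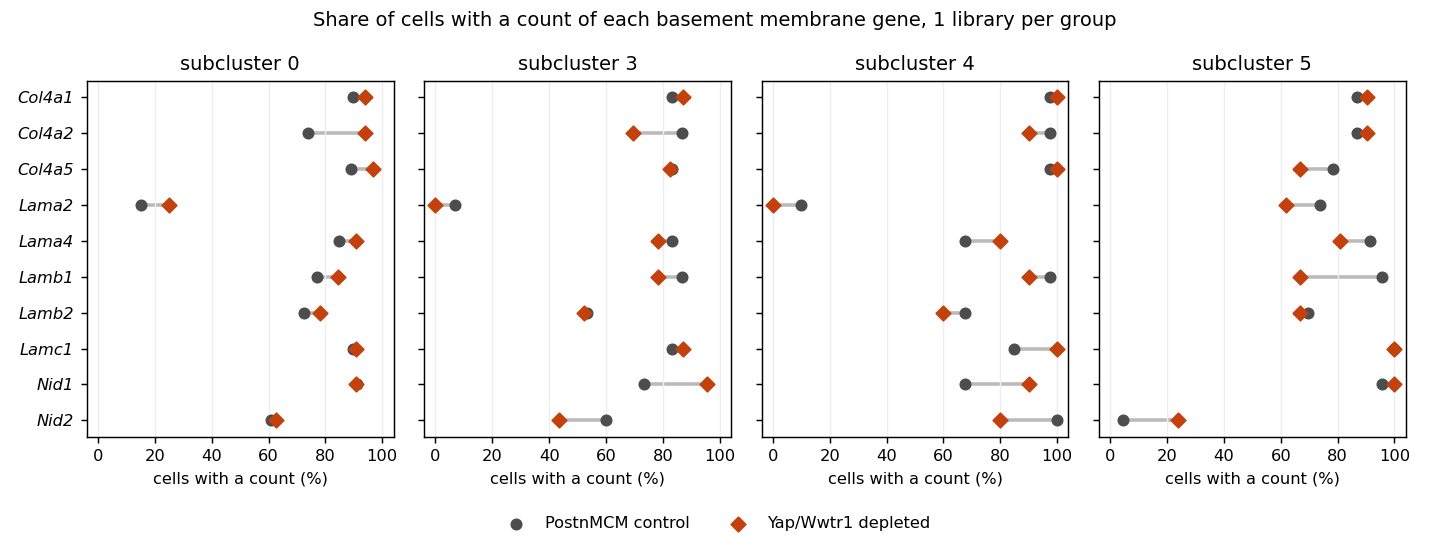
Share of cells with a corrected count above 0 (x axis, percent) for the 10 genes (y axis) in fibroblast subclusters 0, 3, 4 and 5 (panels), with grey circles for the PostnMCM control library, orange diamonds for the library labelled depleted and a line joining both; there is 1 library per group and no error bar. Most genes sit above 60% in both libraries, Lama2 is at 25% or less outside subcluster 5, and Nid2 is at 4.3% and 23.8% in subcluster 5.

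The laminin gamma chain Lamc1 (chr1:153094597-153208774, minus strand), a chain shared by most laminins, was counted in at least 83.3% of cells in every library. Its shares were 89.7% and 90.6% in subcluster 0, 83.3% and 87% in subcluster 3, 85% and 100% in subcluster 4, and 100% in both libraries in subcluster 5. Its log2 fold changes were 0.30, 0.01, -0.17 and 0.05, past the limit in subcluster 0, where 8.72% of detected genes were as high or higher, and under it elsewhere.

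The beta chains, which pair with it, were lower in subcluster 5 where Lamc1 was near 0. Lamb1 (chr12:31315030-31379658, plus strand) was counted in 95.7% of control cells and 66.7% of cells of the library labelled depleted in subcluster 5, with a log2 fold change of -0.52, the largest difference in share of the 10 genes over the 4 subclusters. Elsewhere its log2 fold change was 0.35 (subcluster 0, 77.2% and 84.4%), -0.14 (subcluster 3, 86.7% and 78.3%) and 0.06 (subcluster 4, 97.5% and 90%). Lamb2 (chr9:108356935-108367729, plus strand), the beta chain of muscle and vessel laminins, was at 0.25, -0.26, -0.26 and -0.69 in subclusters 0, 3, 4 and 5. Its shares differed less, at 72.4% and 78.1%, 53.3% and 52.2%, 67.5% and 60%, and 69.6% and 66.7%. In subcluster 5, Lamb1 minus Lamc1 was -0.57 and Lamb2 minus Lamc1 was -0.74.

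The alpha chains, which carry the sites that bind cell receptors, differed from each other in where they were found and in direction. Lama4 (chr10:38841141-38998403, plus strand), the alpha chain of vessel and connective tissue laminins, was counted in 67.5% to 91.3% of cells. It was higher in subcluster 4, at 0.55 with shares of 67.5% and 80%, and 6.12% of detected genes were as high or higher there. It was lower in subcluster 5, at -0.29 with shares of 91.3% and 81%, and under the limit in subclusters 0 and 3, at -0.17 (84.8% and 90.6%) and 0.16 (83.3% and 78.3%).

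Lama2 (chr10:26856032-27495754, minus strand), the alpha chain of the laminin around muscle fibres, was found mainly in subcluster 5 among the 4 subclusters. It was counted there in 73.9% of control cells and 61.9% of cells of the library labelled depleted, with a log2 fold change of -0.56. In subcluster 0 its shares were 15.2% and 25% (log2 fold change 0.23), in subcluster 3 they were 6.7% and 0% (-0.09), and in subcluster 4 they were 10% and 0% (-0.20). The values of subclusters 3 and 4 rest on shares of few steps. Over the 8 shares (4 subclusters, 2 libraries), the genes most like Lama2 among 10530 were Atp8b1, Anpep and Adam19, with root mean square differences of 7.69, 8.52 and 8.71 percentage points. This comparison of shares was chosen after the values were seen.

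**Figure D3:**
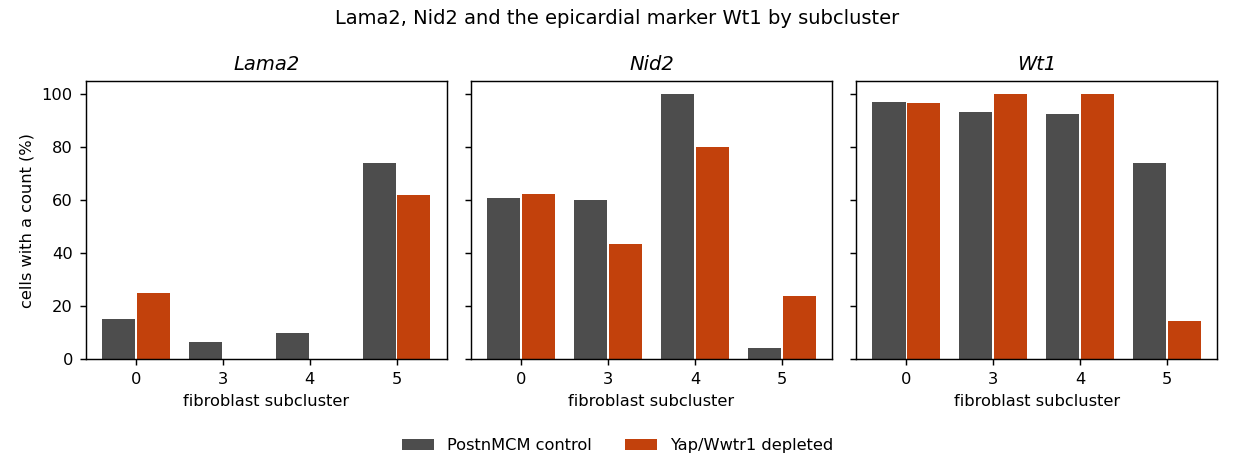
Share of cells with a corrected count above 0 (y axis, percent) for Lama2, Nid2 and the epicardial marker Wt1 in fibroblast subclusters 0, 3, 4 and 5 (x axis), with grey bars for the PostnMCM control library and orange bars for the library labelled depleted, 1 library each; absent bars are shares of 0. Lama2 is high only in subcluster 5, where Nid2 is lowest and where Wt1 is at 73.9% in the control library and 14.3% in the library labelled depleted.

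The nidogens differed in how far their values departed from 0. Nid1 (chr13:13612071-13686860, plus strand) was higher in share in the library labelled depleted in subclusters 3 (73.3% and 95.7%) and 4 (67.5% and 90%) and near equal in subclusters 0 (91% and 90.6%) and 5 (95.7% and 100%). Its log2 fold changes were 0.11, 0.24, 0.09 and -0.04 in subclusters 0, 3, 4 and 5, all under the limit. By the log2 ratio of shares it was past the limit in subclusters 3 and 4, at 0.38 and 0.41. Whether the TEAD core in the promoter window of Nid1 bears on these values was not tested.

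Nid2 (chr14:19801298-19861855, plus strand) was lowest in the subcluster where Lama2 was highest. It was counted in 60.7% and 62.5% of cells in subcluster 0, 60% and 43.5% in subcluster 3, 100% and 80% in subcluster 4, but 4.3% and 23.8% in subcluster 5, where the control share was the smallest step of that table. Its log2 fold changes were -0.12, -0.71, -0.09 and 0.30. In subcluster 3 only 0.70% of detected genes were as low or lower. Its nearest genes by shares, by the same measure, were Tkfc, Folr1 and Sox12, at 9.51, 10.7 and 12.0 percentage points.

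**Figure D4:**
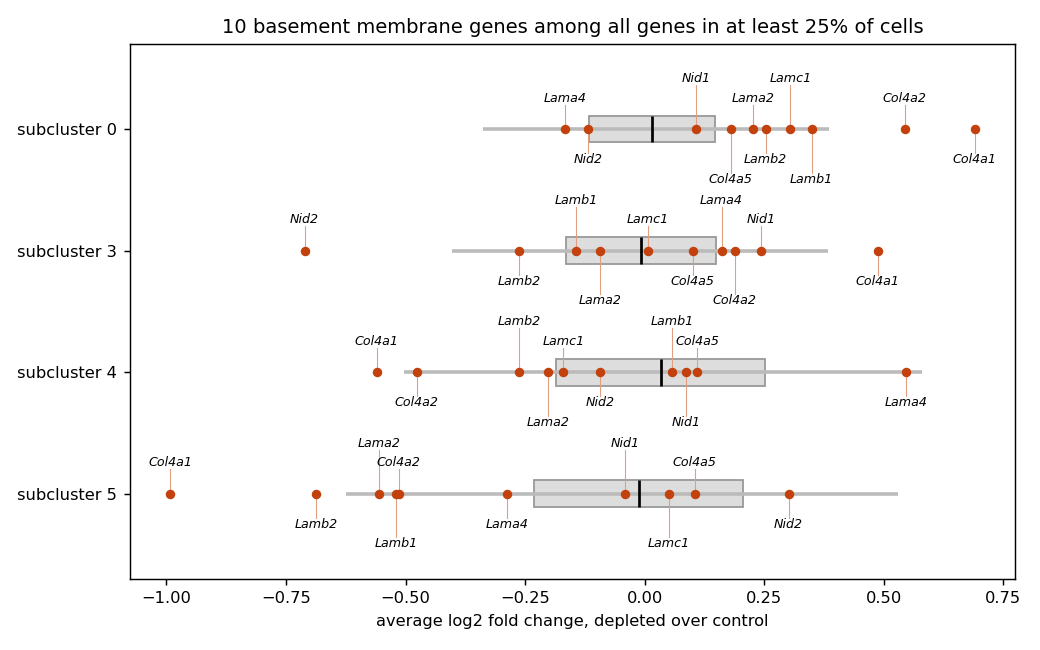
Deposited average log2 fold change (x axis) of the 10 genes (labelled orange points) against all detected genes (a share of at least 25% in 1 of the libraries) by fibroblast subcluster (y axis), where the grey line spans the 5th to 95th percentile of those genes, the box the 25th to 75th, and the black bar the median. Col4a1 lies outside the grey line in all 4 subclusters, above it in subclusters 0 and 3 and below it in subclusters 4 and 5.

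Of the 40 values (10 genes in 4 subclusters), 26 had the same direction in log2 fold change as in share of cells, 13 had opposite directions and 1 had equal shares. Of the 19 values past the limit, 3 had opposite directions, namely Col4a1 in subclusters 4 and 5 and Col4a2 in subcluster 5.

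Of the 18 tables of whole clusters, 1 listed any of the 10 genes. The fibroblast cluster (cluster 5) listed Nid2, counted in 43% of control cells and 31% of cells of the library labelled depleted, with a log2 fold change of -0.39. Of the 605 genes listed for cluster 5, 56.7% were lower. The 18 tables listed 159 to 1914 genes each, of 15181 different genes over all tables, so most genes are absent from any 1 of them. The other 9 genes were in no cluster table, and the 17 tables of neutrophils, B cells, macrophages and monocytes, T cells, natural killer cells, dendritic cells and clusters without a name listed none. These tables hold only genes with a log2 fold change of at least 0.25 in size and a share of at least 25% in either library, so an unlisted gene may be rare there or may differ by less. The share of the 10 genes in cells that should lack them, and with it the background from free RNA, could therefore not be read from them. In cluster 5 the opposite values of Col4a1 in its subclusters came with no listing at all.

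Other components of the basement membrane were described from a list of 25 genes, 18 of which were in the subcluster tables. In subclusters 0, 3, 4 and 5, 3, 0, 5 and 0 were higher past the limit and 1, 4, 3 and 3 were lower, with medians of 0.08, -0.02, -0.01 and -0.06. Of all detected genes 12.5%, 13.8%, 25.2% and 20.3% were higher and 9.87%, 15.1%, 19.5% and 23.5% lower, so that the 8 of 18 past the limit in subcluster 4 lie near the 44.8% of all detected genes there. Over the 4 subclusters 11 values were lower and 8 higher, and 24 and 20 by the ratio of shares. Hmcn1, which encodes the large matrix protein hemicentin, had the highest value, 2.06 in subcluster 4, with shares of 7.5% and 50%. The smallest shares above 0 there were 2.5% and 10%, so this value rests on few steps. Its value in subcluster 0 was 0.83 (13.1% and 43.8%), and cluster 5 listed it at 0.54. Tinagl1, a secreted matrix protein of basement membranes, had log2 fold changes of -1.02 in subcluster 0 (66.9% and 59.4%) and -1.13 in subcluster 3 (73.3% and 47.8%), and cluster 5 listed it at -0.77 (41.6% and 13.4%). A neutrophil cluster (cluster 18) also listed Tinagl1, at -0.63 (54.5% and 23.5%), and Sparc, a collagen-binding matrix protein named here after its values were seen, at -0.63 (36.4% and 0%). Sparc was also listed in cluster 10, of T cells, at -0.41 (36.4% and 7%) and in cluster 15, which has no name, at -0.30 (34.4% and 9.1%). Cell numbers of clusters 10, 15 and 18 are not known here, so these shares may rest on few cells. Col15a1, a collagen that links basement membranes to the fibres around them, reached -1.08 in log2 fold change in subcluster 5, with shares of 82.6% and 95.2%.

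The receptors of the basement membrane (integrins, dystroglycan, discoidin domain receptors and Bcam) were described from a list of 11 genes. Of these, 1, 1, 4 and 2 were higher past the limit and 0, 2, 1 and 2 lower in subclusters 0, 3, 4 and 5, to be read against the same percents of all detected genes. No gene of this list detected in at least 25% of cells reached 1 in size, and the lists were not compared by a test. Over the 4 subclusters 5 values were lower and 8 higher, and 14 and 9 by the ratio of shares. None of them was listed in cluster 5.

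Most genes of collagen folding, crosslinking and turnover were lower in the library labelled depleted in subcluster 5 by fold change. Of 14 genes, 10 were lower past the limit there and 0 higher, beside 23.5% lower and 20.3% higher of all detected genes, with a median of -0.64. By the log2 ratio of shares 5 were lower and 1 was higher there. In subclusters 0, 3 and 4, 5, 2 and 4 were higher (12.5%, 13.8% and 25.2% of all detected genes) and 4, 4 and 5 lower (9.87%, 15.1% and 19.5%), with medians of 0.10, -0.0012 and -0.02. Over the 4 subclusters 23 values were lower and 11 higher past the limit, and 14 and 5 by the ratio of shares. Plod2, a lysyl hydroxylase of collagen, was at 1.25 in subcluster 0 (84.1% and 100% of cells) and at -0.89 (100% in both libraries) for subcluster 5, and cluster 5 listed it at 0.30. Cluster 5 also listed Mmp14, a membrane-bound matrix protease, at 0.45, Timp3, an inhibitor of such proteases, at -0.45, and Serpinh1, the collagen chaperone, at -0.39.

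By likeness of the 4 log2 fold changes, measured as the root mean square difference among 7079 other genes detected in at least 25% of cells in every subcluster, the genes nearest to Col4a1 were Adamts15 (0.22), a matrix protease, P4ha1 (0.23), a prolyl hydroxylase subunit of collagen synthesis, and Trem2 (0.24), a receptor of macrophages. Col4a2 ranked 4th, at 0.29, followed among the 10 genes by Lamb2 (148th), Lamb1 (299th), Lamc1 (1305th), Nid1 (1635th), Col4a5 (2877th) and Lama4 (4664th). Lama2 and Nid2 were not ranked, since they were not detected in every subcluster. The genes nearest to Lamc1 were Safb2, Zbed3 and Cox16 (0.03, 0.04 and 0.04), and those nearest to Nid1 were Tpp1, Rftn1 and N4bp2 (0.01, 0.02 and 0.03). The 4 values of each gene come from the same 2 libraries.

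Markers of other cell types also differed between the libraries within the subclusters. Their counts past the limit stand beside 12.5%, 13.8%, 25.2% and 20.3% higher and 9.87%, 15.1%, 19.5% and 23.5% lower of all detected genes in subclusters 0, 3, 4 and 5. The 3 neutrophil markers were lower past the limit in subclusters 0, 3 and 4, with medians of -3.90, -2.26 and -2.35, and their mean share went from 72.9% to 33.3%, 68.9% to 39.1% and 69.2% to 33.3%. In subcluster 5 their median was 0.13 and their mean share went from 63.8% to 38.1%. The mean share of the 4 macrophage markers went from 68.8% to 37.5%, 65.8% to 43.5%, 66.9% to 47.5% and 61.9% to 40.5% in subclusters 0, 3, 4 and 5, whereas their median log2 fold changes were -0.26, 1.42, -0.56 and 0.45, with 1, 3, 0 and 2 of the 4 higher past the limit and 2, 0, 2 and 1 lower. Whether these transcripts came from free RNA or from other cells in the same droplets cannot be told apart here, and their part in the values of the 10 genes was not tested.

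Endothelial and mural cells also make basement membranes. Of 8 endothelial markers 7 were in the tables, with mean shares of 4.8% to 14.6%. Pecam1 and Cdh5, which define endothelial cells, were at most at 9.5% and 7.5% and were both at 0% in the library labelled depleted in subclusters 3 and 4. Kdr, the VEGF receptor of endothelium, was counted more widely, in 38.6% and 50% of cells in subcluster 0 (log2 fold change 0.62), 26.7% and 39.1% in subcluster 3 (0.24), 40% and 50% in subcluster 4 (-0.30) and 4.3% and 0% in subcluster 5 (-0.06). In subcluster 4, Egfl7 went from 27.5% to 10% (-0.27) and Flt1 from 22.5% to 10% (-0.39), and 3 of the 7 markers were lower past the limit and 1 higher, with 2 of the 7 at a share of 25% or more. In subcluster 5, Flt1 went from 13% to 0% (-0.52), 1 was lower and 0 were higher. In subclusters 0 and 3, 1 and 0 were higher and none was lower. The 6 mural cell markers had mean shares of 3.3% to 11.6%, and Rgs5 and Myh11 were at most at 8.7% and 4.8%. In subcluster 0, Kcnj8 went from 15.9% to 37.5% of cells (log2 fold change 0.52) and Abcc9 from 2.1% to 12.5% (0.29), both higher past the limit, while Cspg4 went from 11.7% to 3.1% (-0.14), Notch3 from 2.8% to 0% (-0.04) and Myh11 from 0.7% to 3.1% (0.03), and Rgs5 was at 0% in both libraries. The median over the list there was 0.02. In subcluster 5, Notch3 went from 13% of control cells to 47.6% (log2 fold change 0.09), while Abcc9 went from 21.7% to 0% (-0.65), Kcnj8 from 17.4% to 0% (-0.48) and Cspg4 from 8.7% to 0% (-0.33). There 3 of the 6 were lower past the limit and 0 higher, with a median of -0.19. The part of these markers in the values of the 10 genes was not tested. The mean share of 2 Schwann cell markers was at most 10.8%, and that of 4 cardiomyocyte markers at most 8.8%.

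The 6 epicardial markers had mean shares of 66.7% to 82.8% in subclusters 0, 3 and 4. In subcluster 5 their mean share was 26.1% in the control library and 5.6% in the library labelled depleted, and none was at 0 in both libraries. Of the 6, 1, 2, 3 and 0 were higher past the limit and 2, 3, 0 and 3 lower in subclusters 0, 3, 4 and 5, with medians of 0.02, -0.01, 0.31 and -0.19, and 2 of them reached a share of 25% in subcluster 5. Wt1, an epicardial transcription factor, had log2 fold changes of 0.47, 0.25, 0.64 and -1.08, and in subcluster 5 it went from 73.9% to 14.3% of cells. Msln and Krt19, both epithelial genes of the epicardium, reached 1.32 (47.5% and 60% of cells) and 1.25 (37.5% and 30%) in subcluster 4. Upk3b (-0.13), Lrrn4 (-0.09) and Krt8 (-0.01) were slightly below 0 there, each with a smaller share in the library labelled depleted. By the ratio of shares, 3 epicardial markers were lower past the limit in subcluster 4 and 1 was higher. Krt19 was negative in subclusters 0, 3 and 5 (-0.41, -0.63 and -0.43). Of the 6 fibroblast markers, 3, 1, 2 and 0 were higher past the limit and 0, 0, 1 and 1 lower in subclusters 0, 3, 4 and 5, with medians of 0.26, 0.07, 0.06 and -0.03, so that in subcluster 0 their median was near that of the 10 genes. Pdgfra, a growth factor receptor of fibroblasts, was at 1.35, 0.76, 0.39 and -0.06, and Thy1, a surface protein of fibroblasts, at 0.29, -0.11, 0.65 and -0.31. The cells of the 2 libraries within a subcluster thus differed in these markers as well, and their part in the values of the basement membrane genes was not tested.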

How the data were processed

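Processed tables of single-cell comparisons were used, with 1 library per group. According to the submitters' processing notes and the methods of the study, the authors aligned reads with Cell Ranger 6.1.1 to GRCm39 (NCBI annotation) with reporter sequences added, merged the libraries without equalizing their depth, filtered genes and cells in Seurat, normalized with SCTransform, clustered, and clustered the fibroblasts again. The column names and the authors' methods gave which library each deposited fraction belongs to. The fractions are taken here as shares of cells with a corrected count above 0 (printed as percents). The deposited log2 fold change is taken as that of mean corrected values plus 1. The deposited p-value columns, computed by the authors over cells, were not used. The 4 subclusters share 1 normalization, and shares were compared among them. The whole clusters were normalized separately, and levels were not compared between clusters and subclusters. Cluster 16 and subclusters 1 and 2 were not analysed here. The tables hold no barcodes, so cells shared between libraries and doublets could not be examined. The sources name no doublet caller.

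From the tables, Python 3.11.15 (pandas 2.3.3) counted genes past 0.25 in log2 fold change, took medians over the genes, and compared them with all genes at 25% of cells or more in either library. Counting steps were tested on simulated data. The log2 ratio of shares used a pseudocount of 1 percentage point. Named genes of the other basement membrane, receptor and assembly lists were those detected in at least 25% of cells with a size of at least 1 in a subcluster, or listed in cluster 5, and, chosen after their values were seen, Col4a6, Sparc and the cell type markers printed. Also named were the 3 genes nearest to Col4a1, Lamc1 and Nid1 by log2 fold change. Member genes and lists were chosen with earlier results of these data known. Positions came from GENCODE (GRCm39) and promoter windows from RefSeq (GRCm38.p6). The alternatives were the ratio of shares, centring on all detected genes, a limit of 0.5, detected members alone, and means. With 1 library per group no replicate could be left out. The depth of each sample is unknown, so no interval is given.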

Additional observations from a re-analysis of the deposited data

Results flagged for a closer look

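Col4a1 and Col4a2 were each higher by at least 0.5 (log2) in one fibroblast subcluster of the library labelled depleted and fell short of the control library by at least that much in another. The log2 fold change of Col4a1 was 0.69 (subcluster 0) and -0.99 (subcluster 5), and that of Col4a2 was 0.54 and -0.51. The difference between subclusters was not tested, for want of a replicate library. By the ratio of shares both genes turned to 0.056 in subcluster 5, with shares of 87% and 90.5%. A size of 0.5 for this comparison was chosen after the values were seen.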

How the results depend on the processing

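No paired analysis was possible because neither genotype has a replicate library. With the log2 ratio of shares in place of the deposited log2 fold change, 2 of the 10 genes were higher past the limit in subcluster 0 and 2 lower in subcluster 5, the medians were 0.10, -0.059, -0.039 and -0.030 in subclusters 0, 3, 4 and 5, with a change of direction in subcluster 3, and Col4a1 turned to 0.036 in subcluster 4 and 0.056 in subcluster 5 and Col4a2 to 0.056 in subcluster 5. Over the 4 subclusters the same ratio gave 24 lower and 20 higher values of other basement membrane components, 14 lower values of receptors, and 14 lower and 5 higher values of collagen assembly genes. With a limit of 0.5, 2 genes were higher in subcluster 0, 0 in subcluster 3 and 0 in subcluster 5, 1 was lower in subcluster 3 and 1 in subcluster 4, and 0 were listed in a cluster table. With detected genes alone, 0 were higher in subcluster 5, since Nid2 is left out. Centring on all detected genes gave medians of 0.23, 0.060, -0.17 and -0.39, and means were -0.0023, -0.10 and -0.31 in subclusters 3, 4 and 5, where that of subcluster 3 changed direction. Centring moved no count past the limit by over 1.5 times and changed the direction of 0 of the 19 values past the limit. The percents of all detected genes past the limit by the ratio of shares, or past a limit of 0.5, are not given here. A share cannot exceed 100%, so the ratio has little room to rise for a gene counted in nearly all cells. Col4a1 in subcluster 4, at 97.5% and 100%, is 1 such gene. The cause of the changes with the ratio of shares was not tested.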
